A study of Homo sapiens with 24 samples.

Results

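The genes that human cells switch on in answer to type I interferon, together with the sensors of foreign RNA that call for interferon, were followed in transfected HEK293T cells. The group holds 44 genes, chosen by name as standard sensors, signalling proteins and interferon-stimulated genes. Of the 44 genes, 43 were measured, each by the probe set that carries its symbol alone, out of 18417 genes measured this way in all. STAT2, part of the factor that carries the interferon signal to the nucleus, was not analysed here because no probe set was paired with it. DDX58, which encodes the sensor RIG-I, stands in the current gene table as RIGI.

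The arrays came from HEK293T, a line of human embryonic kidney origin that takes up transfected nucleic acid readily. Cells received 40 nM of an siRNA against FMR4, a long non-coding RNA, or of a scrambled control siRNA (FMR4 siRNA and CTRL siRNA), both with Lipofectamine RNAiMAX. Other cells received 0.5 μg of the plasmid pcDNA3.1 with FMR4 or the same vector empty (FMR4 pcDNA3.1 and CTRL pcDNA3.1), both with Lipofectamine 2000CD. RNA was taken at 6 or 24 h, which gave 8 conditions of 3 arrays each and 24 arrays in all. Every condition was thus transfected, and no untransfected cells were among the samples, so the siRNA arms and the plasmid arms (6 arrays each at a time) were compared with each other and 24 h with 6 h. The siRNA and plasmid arms differ in nucleic acid and in reagent together, and these cannot be told apart. An array stands for 1 biological replicate, for which 3 technical replicates were pooled, and p-values measure the spread between these replicates of a single cell line. In bulk RNA, fewer cells with a transcript and less of it per cell cannot be told apart. The level of FMR4 itself was not read from these arrays.

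Foreign RNA in the cytoplasm is bound by RIG-I (DDX58), MDA5 (IFIH1) and their regulator LGP2 (DHX58), and double-stranded RNA in endosomes by TLR3. RIG-I and MDA5 signal through the mitochondrial adaptor MAVS to the transcription factors IRF3 and IRF7, which switch on interferon beta (IFNB1). Secreted interferon then acts through a complex that holds STAT2 and IRF9 on a shared promoter element, and the genes that follow block viral RNA (IFIT, OAS and PKR proteins), virus entry and exit (MX proteins, BST2) or tag proteins with ISG15. Reporter lines for several of these receptors, TLR3 among them, are commonly built in HEK293 cells, which make little of the receptors themselves.

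That shared element, the interferon-stimulated response element, is shown here because interferon acts through it on many, though not all, of the listed genes. It was searched for as the letters GAAA, any 2 bases and GAAA again, on both strands (TTTC, any 2 bases, TTTC on the other), in RefSeq promoters (GRCh38.p14) that reach from 250 bases before to 50 bases after the start of each gene, and matches were allowed to overlap. A promoter was at hand for 36 of the 44 genes, and IFIT2, DHX58, OAS2, OASL, MX2, IRF3, IRF7 and USP18 were not matched. Of the 36, 20 (55.6%) held the element and 12 held more than 1 copy, where 3.57% of all 35116 promoters in the table held it. The whole promoter of IFIT1, with 2 copies of the element in capitals, is given first and that of HERC6, in which these letters do not occur, second.
IFIT1, chr10:89392373-89392672, plus strand: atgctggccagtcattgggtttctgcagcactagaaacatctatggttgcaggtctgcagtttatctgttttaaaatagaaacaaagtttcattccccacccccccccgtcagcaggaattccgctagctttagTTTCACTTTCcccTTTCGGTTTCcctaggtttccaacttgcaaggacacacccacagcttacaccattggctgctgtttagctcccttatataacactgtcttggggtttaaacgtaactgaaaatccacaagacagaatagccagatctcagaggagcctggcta
HERC6, chr4:88378602-88378901, plus strand: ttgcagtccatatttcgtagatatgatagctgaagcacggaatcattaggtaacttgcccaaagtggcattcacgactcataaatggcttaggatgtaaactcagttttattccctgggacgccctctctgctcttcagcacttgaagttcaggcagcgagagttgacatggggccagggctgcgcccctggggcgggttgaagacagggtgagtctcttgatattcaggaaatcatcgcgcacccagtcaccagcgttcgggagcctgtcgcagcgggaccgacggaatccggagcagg
In the next lines, 50 bases around a copy are shown for textbook outputs of the pathway and for genes whose levels are described further on, again with the element in capitals.
ISG15, chr1:1013367-1013416, plus strand: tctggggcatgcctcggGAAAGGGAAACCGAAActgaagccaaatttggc
MX1, chr21:41420549-41420598, plus strand: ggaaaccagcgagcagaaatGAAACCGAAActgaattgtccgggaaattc
CXCL10, chr4:76023689-76023738, minus strand: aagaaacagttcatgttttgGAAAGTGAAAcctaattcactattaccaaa
EIF2AK2, chr2:37156957-37157006, minus strand: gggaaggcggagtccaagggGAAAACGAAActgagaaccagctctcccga
IFIT5, chr10:89414503-89414552, plus strand: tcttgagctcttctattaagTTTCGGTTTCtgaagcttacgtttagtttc
TLR3, chr4:186069132-186069181, plus strand: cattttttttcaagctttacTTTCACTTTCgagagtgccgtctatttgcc
SAMD9, chr7:93118086-93118135, minus strand: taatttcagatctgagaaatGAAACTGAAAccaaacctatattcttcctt
IFI44L, chr1:78620264-78620313, plus strand: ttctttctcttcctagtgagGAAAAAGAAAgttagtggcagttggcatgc
HERC5, chr4:88456974-88457023, plus strand: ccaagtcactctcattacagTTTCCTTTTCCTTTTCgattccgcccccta
The runs of paired GAAA or TTTC blocks are plain to see, and in ISG15, where the copies overlap, 3 blocks follow each other. Of the 20 genes with the element, 8 were called in at least 1 comparison, as were 5 of the 15 measured genes whose promoter lacked these letters, where 48.5% of all genes on the arrays were. A match of letters is a description of the sequence and does not show that a factor was bound in these cells.

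Expression is given as log2 values, so that a difference of 1 is a doubling. As a yardstick for genes that are switched off, the 454 probe sets of olfactory receptor and hair keratin-associated protein genes were used, families not expected to be expressed in kidney cells, with a 75th percentile of 6.00 and a 95th percentile of 7.73. Most of the interferon genes lay within that range. Only 10 of the 43 (23.3%) had a mean over the 24 arrays above the 95th percentile, where 56.1% of all genes did, and 17 (39.5%) lay at or below the 75th percentile, where 17.7% of all genes did. The same 10 genes were above it in each of the 8 condition means and no other gene was in any. The array normalization used (GC-RMA) does not put different probe sets on a common scale. The place of a gene against this range, percentiles included, is therefore approximate as well, and no order of level among the genes is drawn from it.

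The genes above the range were EIF2AK2 (10.48), which encodes the kinase PKR that stops translation when it binds double-stranded RNA, TRIM25 (10.21), a ubiquitin ligase that helps RIG-I, the adaptor MAVS (9.38), the transcription factors IRF3 (9.28), IRF7 (8.10) and IRF9 (7.92), and 4 interferon-stimulated genes. These were IFI6 (9.57), a small membrane protein that opposes cell death, USP18 (9.13), the protease that removes ISG15 and damps the interferon receptor, HERC5 (8.62), the ligase that attaches ISG15, and IFIT5 (8.28), which binds RNA ends. The genes at or below the 75th percentile included the products by which an interferon response is usually read. IFNB1 had a mean of 4.24 and CXCL10, a chemokine of the response, of 4.18, at percentiles 11.9 and 10.1 of the silent probe sets, with ranges over the 24 arrays of 0.451 and 0.533. MX1 (5.66), MX2 (5.62), RSAD2 (5.17), IFI44 (4.10), IFI44L (5.10), IFIT1 (5.96), IFIT2 (4.91), IFIT3 (5.37), BST2 (5.77) and the sensors IFIH1 (4.96) and TLR3 (5.32) lay there as well. The other 16 genes, among them ISG15 (7.45), OAS1 (6.79), DDX58 (7.32) and DHX58 (6.54), lay between the marks. The range of a gene over the 24 arrays ran from 0.24 to 1.22, the widest being that of IFIT1.

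**Figure D1:**
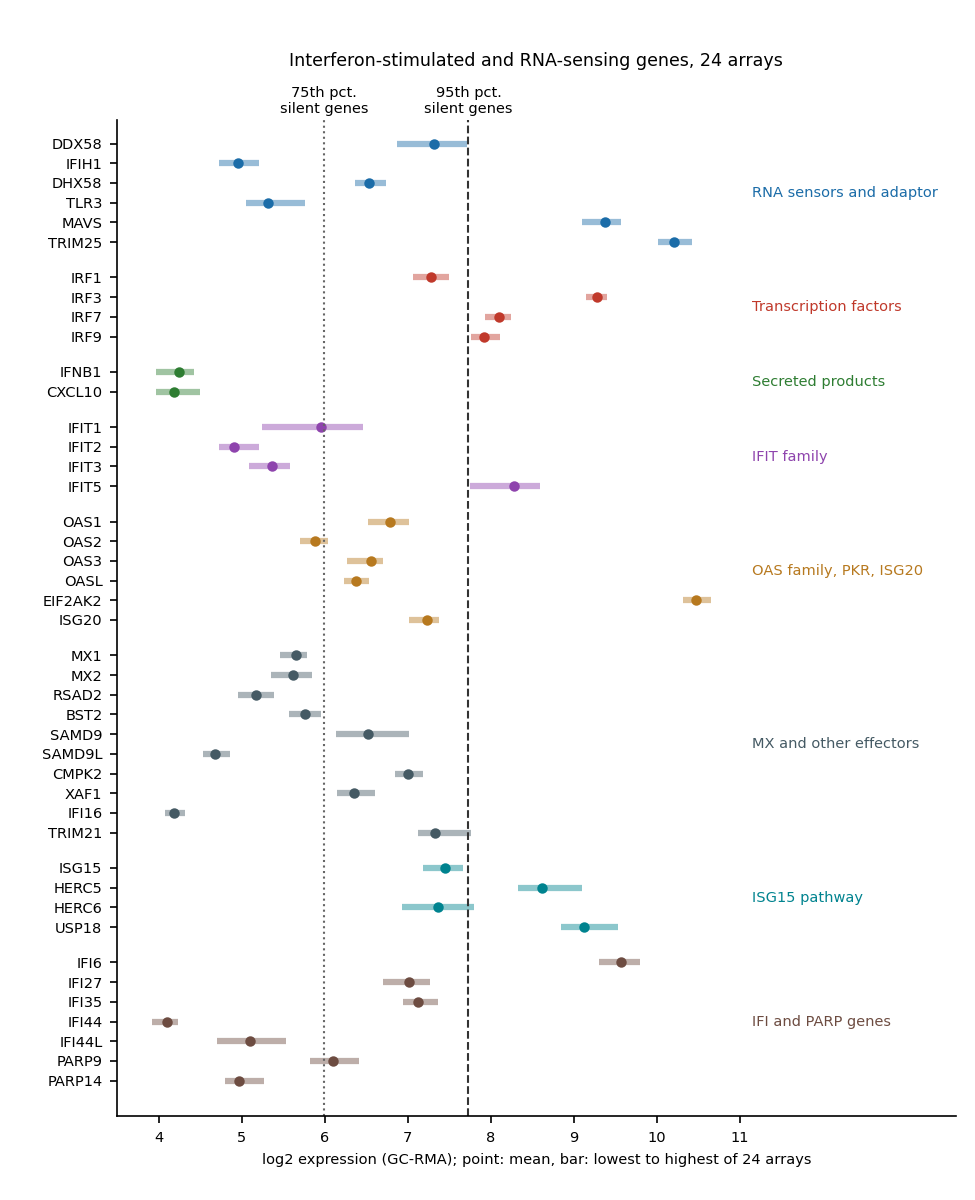
Each row is 1 of the 43 measured genes, grouped by role, with its mean (point) and its lowest to highest value (bar) over 24 arrays on the log2 scale. The dotted and dashed lines mark the 75th and 95th percentile of 454 silent probe sets (6.00 and 7.73), and 10 genes have their mean to the right of the dashed line.

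The label of the cells was checked with marker genes. Of 11 measured markers of HEK293T, 9 lay above the silent range, and PAX2 (7.39) and LHX1 (7.50) lay below its 95th percentile. Of 7 blood and immune markers 2 lay above it, CD68 at 8.28 and SPI1 at 7.77, while PTPRC (4.35) and LYZ (4.74) were at or below the 75th percentile. Of 6 markers of fibroblast and endothelium 1 lay above it, COL1A1 at 8.31. Array medians lay between 7.43 and 7.53, and the lowest correlation between any 2 arrays was 0.989. These figures cover all probe sets and cannot show smaller deviations of single arrays. Replicate 3 of CTRL siRNA and of FMR4 siRNA at 6 h deviated together from the means of their conditions (correlation 0.474).

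Differences between conditions were tested with limma, fitted to all 24 arrays with 1 mean per condition, and a gene was called higher or lower at a Benjamini-Hochberg adjusted p under 0.05 within a comparison. Over 11 comparisons, 15 of the 43 genes were called at least once, and 48.5% of all genes were. The largest of their called changes was 1.40-fold. The differences are given below on the log2 scale, first named condition minus second.

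The largest count came with time in the siRNA arms, where 8 genes were higher and 3 lower at 24 h than at 6 h, or 25.6% of the 43 against 29.9% of all genes (18.3% higher and 11.6% lower). The genes that rose were the sensors and adaptor DDX58, TLR3 and MAVS, the ISG15 ligase HERC5 and its relative HERC6, and IFIT1, IFI35 and IFI44L. The genes that fell were IFIT5, IRF1 and TRIM21. In the plasmid arms 4 genes were higher (IFIT1, IFI44L, HERC6 and IRF3) and 1 lower (IFI6) at 24 h, or 11.6% against 18.2% of all genes (10% higher and 8.19% lower). The median difference over the 43 genes was 0.01 in the siRNA arms and 0.05 in the plasmid arms, beside medians over all genes of -0.00441 and 0.02.

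IFIT1, which binds viral RNA that lacks the host's cap marks, had the largest called change. In the siRNA arms its lowest, median and highest values were 5.24, 5.67 and 5.91 at 6 h and 5.95, 6.11 and 6.46 at 24 h. In the plasmid arms they were 5.59, 5.80 and 5.93 at 6 h and 5.92, 6.25 and 6.42 at 24 h. The siRNA arrays of the 2 times did not overlap, which held for 8.33% of all genes, and in the plasmid arms a single 24 h array, FMR4 pcDNA3.1 replicate 2, lay below the highest of 6 h. The rise with siRNA was 0.49 on the log2 scale, with a standard error of 0.091 (adjusted p = 0.000359), or 1.40-fold. With plasmid it was 0.44, or 1.35-fold (SE 0.091, adjusted p = 0.00181). It was seen in each of the 4 kinds of transfection, at 0.50 and 0.48 with CTRL and FMR4 siRNA and at 0.51 and 0.36 with the empty and the FMR4 plasmid. The test of a difference between the arms in this change gave 0.05 (SE 0.13, adjusted p = 0.823) and was not called. IFIT1 rose within the range of silent genes, of which 1.1% were called higher with time in the siRNA arms and 3.08% in the plasmid arms.

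The close relatives of IFIT1 were not called higher in either arm. IFIT2 and IFIT3, which bind IFIT1 in a complex, had time differences of 0.00 and -0.04 in the siRNA arms and 0.02 and 0.01 in the plasmid arms, none called. IFIT5 went down in the siRNA arms, with lowest, median and highest values of 8.21, 8.39 and 8.59 at 6 h and 7.75, 8.03 and 8.42 at 24 h, which overlap. Its change was -0.33 (SE 0.064, adjusted p = 0.000398). In the plasmid arms IFIT5 had 8.32, 8.39 and 8.54 at 6 h and 8.08, 8.24 and 8.34 at 24 h, a difference of -0.18 that was not called (adjusted p = 0.0566). By kind of transfection the difference was -0.54 with CTRL siRNA and -0.13 with FMR4 siRNA, a contrast taken up with the effect of FMR4 siRNA.

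HERC6 and HERC5 are neighbours on chromosome 4 and relatives in sequence, HERC5 being the human ligase for ISG15. HERC6 had lowest, median and highest values of 6.93, 7.09 and 7.29 at 6 h and 7.20, 7.45 and 7.60 at 24 h with siRNA, and of 7.23, 7.30 and 7.34 at 6 h and 7.54, 7.65 and 7.80 at 24 h with plasmid. The plasmid arrays of the 2 times did not overlap, which held for 14.7% of all genes, and with siRNA 1 array of each time reached into the other. HERC6 rose by the same 0.36 (SE 0.065) in both arms, with adjusted p of 0.000268 for siRNA and 0.000463 for plasmid. HERC5 had values of 8.41, 8.55 and 8.64 at 6 h and 8.39, 8.78 and 9.10 at 24 h with siRNA, where it rose by 0.28 (SE 0.068, adjusted p = 0.00368). Most of this came from FMR4 siRNA, at 0.45, beside 0.10 for CTRL siRNA. The lowest of its 24 h arrays, CTRL siRNA replicate 2, lay below all those of 6 h. In the plasmid arms HERC5 had a difference of 0.15 that was not called (adjusted p = 0.144), and ISG15, the protein that HERC5 attaches, had differences of -0.05 with siRNA and 0.11 with plasmid, neither called.

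Among the sensors, DDX58 was the gene whose course differed between the arms. With siRNA its lowest, median and highest values were 6.87, 7.12 and 7.38 at 6 h and 7.33, 7.49 and 7.72 at 24 h. With plasmid they were 7.27, 7.33 and 7.40 at 6 h and 7.25, 7.33 and 7.37 at 24 h. The plasmid arrays kept to 1 narrow range, while 5 of 6 siRNA arrays lay below that range at 6 h and 5 of 6 above it at 24 h, and FMR4 siRNA replicate 1 of 6 h lay among those of 24 h. DDX58 rose by 0.40 (SE 0.068, adjusted p = 0.000143) in the siRNA arms, 1.32-fold, and by 0.44 and 0.37 with CTRL siRNA and FMR4 siRNA taken apart. The plasmid arms gave -0.02 (adjusted p = 0.864). The difference between the 2 courses was 0.42 (SE 0.097, adjusted p = 0.0093), the only such difference called among the 43 genes in this fit, or 2.33% against 11% of all genes. With array weights 7 of the 43 were called and with quantile normalization or median centring 3, DDX58 among them each time. The share of all genes called was not counted in those settings, so the 11% does not serve for them. At each time taken alone, DDX58 was lower by 0.22 with siRNA at 6 h (SE 0.068, adjusted p = 0.0259) and had a difference of 0.20 at 24 h that was not called (adjusted p = 0.0619).

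MAVS, the adaptor on which RIG-I and MDA5 converge, was also called higher at 24 h with siRNA. Its siRNA arrays had lowest, median and highest values of 9.10, 9.20 and 9.38 at 6 h and 9.37, 9.48 and 9.57 at 24 h, and its plasmid arrays 9.29, 9.37 and 9.47 at 6 h and 9.35, 9.45 and 9.51 at 24 h. It rose by 0.26 with siRNA (SE 0.047, adjusted p = 0.000235), with 1 array of 6 h reaching above the lowest of 24 h, and the difference was 0.35 for FMR4 siRNA and 0.18 for CTRL siRNA. The difference with plasmid was 0.07 (adjusted p = 0.345), and the difference between the courses, 0.19, was not called (adjusted p = 0.0613). TLR3, the endosomal sensor, had 5.18, 5.30 and 5.51 at 6 h and 5.37, 5.48 and 5.76 at 24 h with siRNA, where it rose by 0.19 (SE 0.063, adjusted p = 0.0282), and the arrays overlapped. The difference was 0.30 with FMR4 siRNA and 0.07 with CTRL siRNA. The remaining sensors were not called with time. IFIH1 had differences of 0.14 with siRNA and 0.16 with plasmid (adjusted p = 0.106 and 0.0763), DHX58 of -0.04 and 0.04, and EIF2AK2 of 0.04 and -0.09.

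The other calls with time were scattered over roles. IFI35, an interferon-induced leucine zipper protein, had 6.95, 7.03 and 7.04 at 6 h and 7.15, 7.31 and 7.37 at 24 h with siRNA, which do not overlap, a rise of 0.28 (SE 0.048, adjusted p = 0.000181). In the plasmid arms it had 6.96, 7.04 and 7.24 at 6 h and 7.01, 7.19 and 7.22 at 24 h, a difference of 0.10 that was not called (adjusted p = 0.176). TRIM21, the cytosolic antibody receptor and ubiquitin ligase, had 7.22, 7.44 and 7.76 at 6 h and 7.12, 7.20 and 7.34 at 24 h with siRNA, a change of -0.27 (SE 0.070, adjusted p = 0.00521) with overlapping arrays. IRF1, a transcription factor that acts early in the response, had 7.28, 7.42 and 7.50 at 6 h and 7.15, 7.27 and 7.39 at 24 h with siRNA, and its change was -0.15 (SE 0.051, adjusted p = 0.0276), from -0.26 for CTRL siRNA and -0.05 for FMR4 siRNA. IFI6 had 9.49, 9.69 and 9.79 at 6 h and 9.31, 9.39 and 9.55 at 24 h with plasmid, a change of -0.26 (SE 0.056, adjusted p = 0.00191). With siRNA its difference was -0.12 and was not called. IRF3, the factor that MAVS activates, had 9.16, 9.20 and 9.27 at 6 h and 9.25, 9.35 and 9.40 at 24 h with plasmid, a rise of 0.13 (SE 0.039, adjusted p = 0.0209), beside 0.01 with siRNA.

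IFI44L, a relative of IFI44 with an unsettled role, stayed between 4.70 and 5.12 at 6 h and between 4.87 and 5.54 at 24 h with siRNA, and between 4.84 and 5.15 and between 5.01 and 5.46 with plasmid. It was called higher at 24 h in the siRNA arms, by 0.27 with an SE of 0.088 (adjusted p = 0.0248), but the 2 siRNA conditions were unlike, with 0.49 for CTRL siRNA and 0.04 for FMR4 siRNA. The plasmid arms gave 0.26 (SE 0.088, adjusted p = 0.0397), also called, from 0.35 for CTRL pcDNA3.1 and 0.18 for FMR4 pcDNA3.1. With IFIT1 and HERC6 it makes 3 of 43 genes called higher in both arms, where 5.19% of all genes were. The arrays of the 2 times overlapped in both.

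Some of these calls hung on single arrays or on the fit. With only the siRNA arrays fitted, those of IFI44L, TLR3 and IRF1 in the siRNA arms were lost (adjusted p = 0.0518, 0.0697 and 0.0537). Array weights also ended those of IFI44L, at 0.16, and TLR3, at 0.11, and centring each array on its median ended the plasmid calls of IFI44L and IRF3 (adjusted p = 0.0758 and 0.0777). Adjusting over all probe sets ended that of IFI44L as well (adjusted p = 0.0698). The siRNA call of IFI44L was lost without replicate 2 or 3 of CTRL siRNA or replicate 3 of FMR4 siRNA at 6 h, or without replicate 1 or 2 of CTRL siRNA or replicate 2 of FMR4 siRNA at 24 h (adjusted p up to 0.0772). Its plasmid call was lost without replicate 2 or 3 of CTRL pcDNA3.1 or 1 or 2 of FMR4 pcDNA3.1 at 6 h, or without replicate 1 or 3 of either at 24 h (up to 0.13). The siRNA call of TLR3 was lost without replicate 2 or 3 of CTRL siRNA or 1 of FMR4 siRNA at 6 h, or replicate 1 or 2 of CTRL siRNA or 3 of FMR4 siRNA at 24 h (up to 0.0898). That of IRF1 was lost without replicate 1 or 3 of CTRL siRNA at either time, replicate 3 of FMR4 siRNA at 6 h or its replicate 2 at 24 h (up to 0.0785). The plasmid call of IRF3 was lost without replicate 1 or 2 of CTRL pcDNA3.1 or 1 of FMR4 pcDNA3.1 at 6 h, or replicate 2 of CTRL pcDNA3.1 or 3 of FMR4 pcDNA3.1 at 24 h (up to 0.0632). The other calls with time were kept without any single array.

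**Figure D2:**
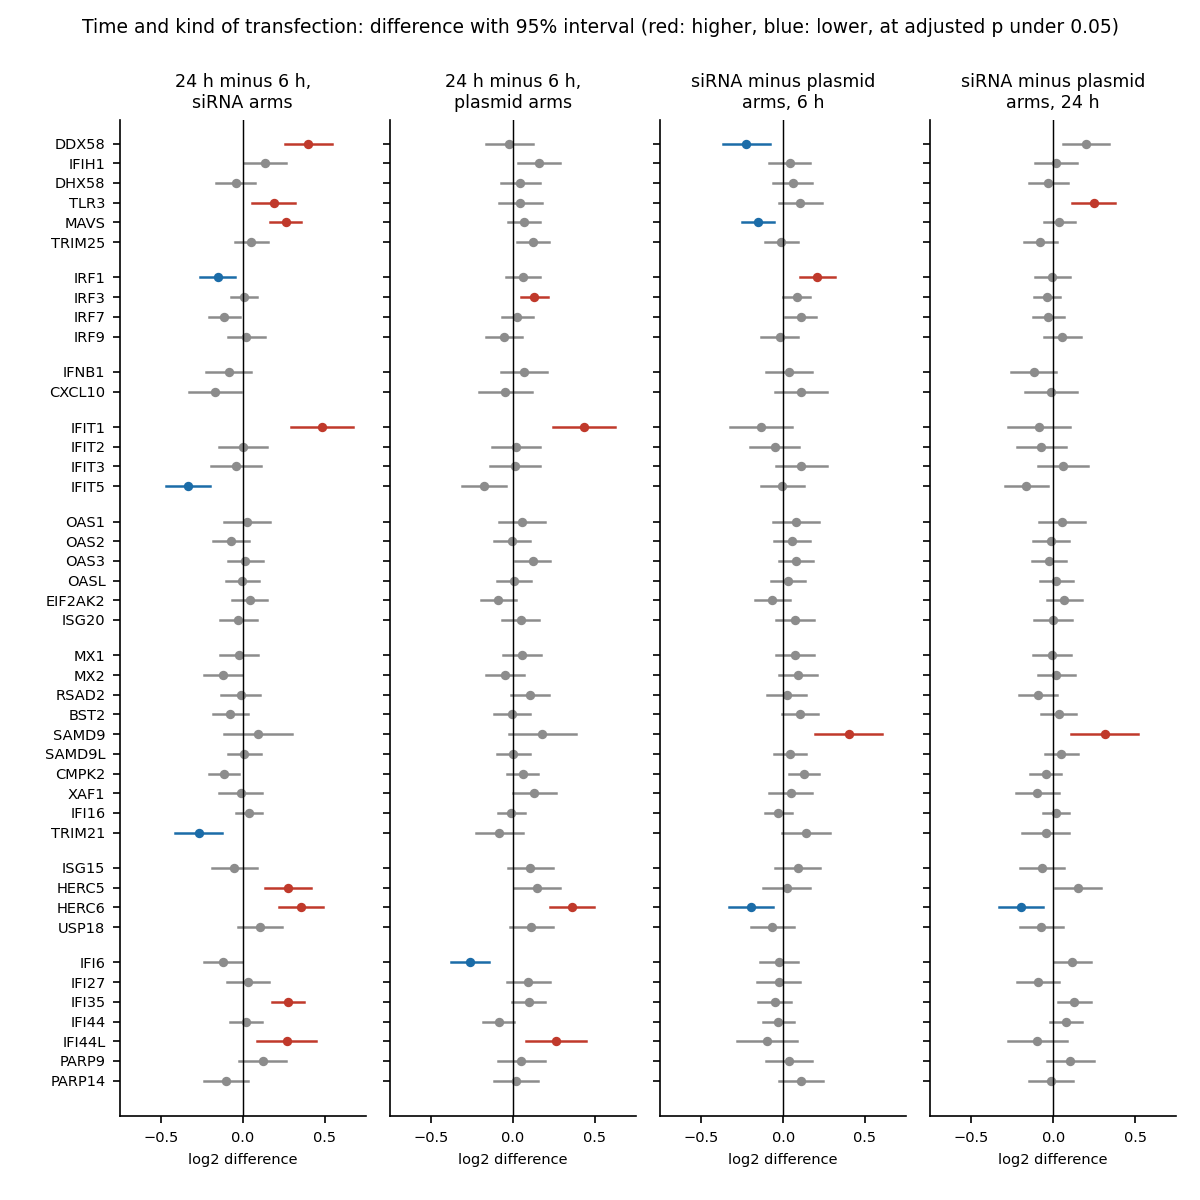
Differences of the 43 genes on the log2 scale with 95% intervals, grouped by role from sensors at the top to IFI and PARP genes at the bottom, with genes called higher in red and lower in blue. The first and second panels show 24 h minus 6 h, in which IFIT1 and HERC6 are red in both arms and DDX58 in the siRNA arms alone, and the remaining panels show siRNA minus plasmid at 6 and then at 24 h.

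With siRNA set against plasmid, 5 of the 43 genes were called at 6 h (11.6%, where 19.2% of all genes were) and 3 at 24 h (6.98%, where 12.3% were). At 6 h SAMD9 and IRF1 were higher with siRNA (7.71% of all genes were higher) and DDX58, MAVS and HERC6 lower (11.5% were). At 24 h TLR3 and SAMD9 were higher (6.6% of all genes) and HERC6 lower (5.67%). The median difference over the 43 genes was 0.04 at 6 h and -0.01 at 24 h, beside 0.00896 and -0.00876 over all genes. Over the silent probe sets it was 0.04 and 0.01, and 6.17% and 1.32% of them were called higher with siRNA at 6 and 24 h. SAMD9, IRF1 and TLR3 lay below the 95th percentile of these probe sets. The 95% intervals of all 43 genes lay within 1.52-fold of no difference at 6 h and within 1.43-fold at 24 h. These intervals concern the values of the probe sets. For the genes within the silent range, how far the values follow the RNA was not tested.

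SAMD9, a cytoplasmic protein that restricts poxviruses, was the gene with the largest called difference. Its lowest, median and highest values at 6 h were 6.36, 6.63 and 7.02 with siRNA and 6.14, 6.26 and 6.37 with plasmid. At 24 h they were 6.51, 6.81 and 6.97 with siRNA and 6.26, 6.46 and 6.53 with plasmid. At both times only the lowest siRNA arrays reached into the plasmid range. SAMD9 was higher with siRNA by 0.40 at 6 h (SE 0.099, adjusted p = 0.00918), 1.32-fold, and by 0.31 at 24 h (SE 0.099, adjusted p = 0.0403). Between the control conditions the difference was 0.47 at 6 h and 0.29 at 24 h, and between the FMR4 conditions 0.34 at both. SAMD9L, its neighbour on chromosome 7 and close relative, lay at 4.69, below the 75th percentile of silent genes, and was not called.

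TLR3 at 24 h had 5.37, 5.48 and 5.76 with siRNA and 5.20, 5.24 and 5.34 with plasmid, and the 6 siRNA arrays lay above the 6 plasmid arrays, as was so in 1 direction or the other for 6.42% of all genes. It was higher with siRNA by 0.25 (SE 0.063, adjusted p = 0.0111), while at 6 h, with 5.18, 5.30 and 5.51 against 5.05, 5.18 and 5.37, the difference of 0.11 was not called (adjusted p = 0.245). The 24 h difference was 0.17 between the controls and 0.32 between the FMR4 conditions. IRF1 at 6 h was higher with siRNA by 0.21 (SE 0.051, adjusted p = 0.00878), its plasmid arrays having 7.07, 7.25 and 7.28 and only 1 siRNA array, FMR4 siRNA replicate 2, lying level with their highest. HERC6 was lower with siRNA by 0.19 at 6 h (SE 0.065, adjusted p = 0.0406) and by 0.20 at 24 h (SE 0.065, adjusted p = 0.0497). MAVS was lower by 0.16 at 6 h (SE 0.047, adjusted p = 0.0248), with overlapping arrays. HERC6 and SAMD9 were thus called in the same direction at both times, or 2 of 43 genes, where 2.36% of all genes were.

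Several of these calls were near the threshold. At 6 h those of DDX58 and MAVS were lost without replicate 3 of any 1 of the 4 conditions, and that of DDX58 also without FMR4 pcDNA3.1 replicate 1 (adjusted p up to 0.076 and 0.0825). The call of HERC6 at 6 h was lost without replicate 1 or 3 of CTRL siRNA, 2 or 3 of FMR4 siRNA, 2 or 3 of CTRL pcDNA3.1 or any of FMR4 pcDNA3.1 at that time (up to 0.109). Its call at 24 h was lost without any 1 of 16 arrays of either time (up to 0.141). Those that could be spared were the 3 of FMR4 siRNA and replicate 1 of CTRL siRNA at 6 h, and replicate 1 of each siRNA condition and of CTRL pcDNA3.1 and replicate 2 of FMR4 pcDNA3.1 at 24 h. The call of SAMD9 at 24 h was lost without replicate 1 or 2 of either siRNA condition, any of CTRL pcDNA3.1, or replicate 2 or 3 of FMR4 pcDNA3.1 at that time (up to 0.12). With only the arrays of that time fitted, the calls of DDX58, MAVS and HERC6 at 6 h were lost (adjusted p = 0.068, 0.094 and 0.0579), and quantile normalization ended that of MAVS (0.0741). HERC6 at 24 h was called in 2 of 8 other settings with both constructs, and SAMD9 at 24 h was lost when all probe sets were adjusted over (0.0722). With the control conditions alone, at 3 arrays a side, no gene was called at 6 h, and at 24 h only IFIT5 was, lower with siRNA (-0.42, adjusted p = 0.00675).

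**Figure D3:**
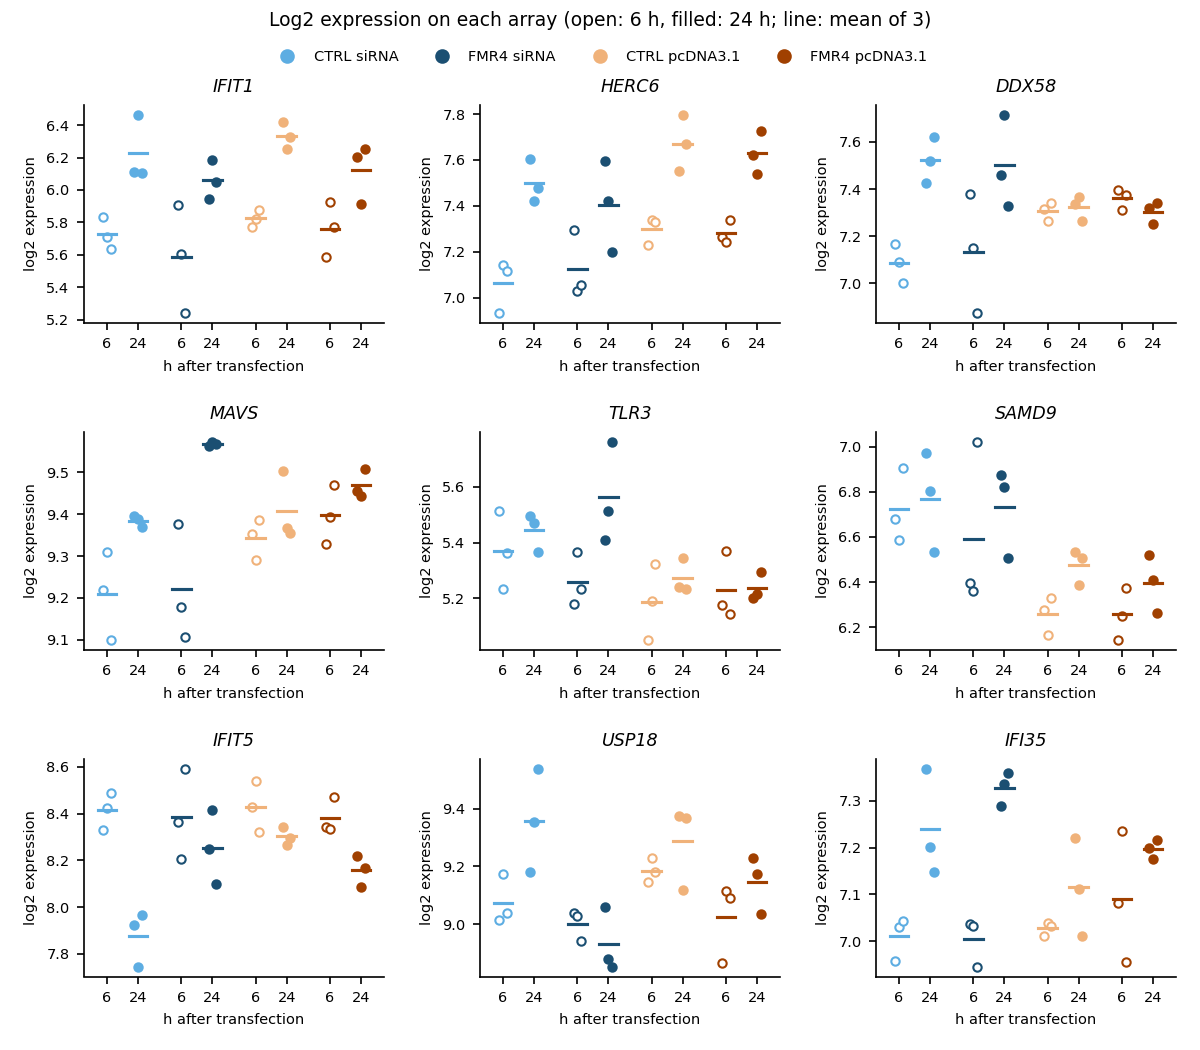
Log2 expression on each array for 9 genes, with open points at 6 h, filled points at 24 h and a line at the mean of 3. From left to right stand the siRNA pair and the pcDNA3.1 pair, each with CTRL before FMR4. IFIT1 and HERC6 rise in every kind of transfection, DDX58 in the siRNA conditions only, and the 3 filled points of CTRL siRNA are the lowest for IFIT5 while those of FMR4 siRNA are low for USP18.

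The study asked which genes follow FMR4 when it is lowered or raised. With FMR4 siRNA at 24 h, 2 of the 43 genes were called, IFIT5 higher and USP18 lower, or 4.65% where 5.88% of all genes were called (3.43% higher and 2.45% lower). At 6 h limma called 0, where 0.0597% of all genes were, and 0 of the 43 also had an unadjusted p under 0.05, where 3.9% of all genes did. With FMR4 pcDNA3.1 no gene was called at 6 or 24 h, as for all genes (0% and 0%), and at an unadjusted p under 0.05 there was 1 gene at 6 h, OAS3 with a difference of 0.23, and 0 at 24 h, beside 2.03% and 3.27% of all genes. The median difference over the 43 genes was -0.03 and -0.02 for FMR4 siRNA at 6 and 24 h and 0.02 and -0.02 for FMR4 pcDNA3.1. The 95% intervals of all 43 genes lay within 1.34-fold and 1.53-fold of no difference for the siRNA at 6 and 24 h, and within 1.30-fold and 1.39-fold for the plasmid. A larger change of the probe set value of any 1 gene lies outside its interval. For the many genes within the silent range, how far these values follow the RNA was not tested.

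USP18 had values of 9.18, 9.35 and 9.54 with CTRL siRNA and 9.06, 8.88 and 8.85 with FMR4 siRNA at 24 h. The arrays of the 2 conditions did not overlap, as for 22.2% of all genes in this comparison. USP18 was lower with FMR4 siRNA by 0.43 (SE 0.090, adjusted p = 0.00408), or 1.35-fold. At 6 h it had 9.01, 9.17 and 9.04 with CTRL siRNA and 9.04, 9.03 and 8.94 with FMR4 siRNA, a difference of -0.07. The 24 h values of CTRL pcDNA3.1 (9.37, 9.12 and 9.37) and FMR4 pcDNA3.1 (9.23, 9.18 and 9.03) overlapped, with a difference of -0.14 that was not called. A further probe set, shared by USP18 and the related sequence USP41P, gave -0.44 at 24 h (SE 0.068, adjusted p = 0.000184) and -0.03 at 6 h, and there the signals of USP18 and USP41P cannot be told apart.

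IFIT5 had values of 7.92, 7.75 and 7.97 with CTRL siRNA and 8.25, 8.42 and 8.10 with FMR4 siRNA at 24 h, which do not overlap. It was higher with FMR4 siRNA by 0.38 (SE 0.090, adjusted p = 0.0116), or 1.30-fold. At 6 h the CTRL siRNA arrays had 8.33, 8.43 and 8.49 and the FMR4 siRNA arrays 8.36, 8.21 and 8.59, and at 24 h the CTRL pcDNA3.1 arrays had 8.34, 8.27 and 8.30 and the FMR4 pcDNA3.1 arrays 8.22, 8.08 and 8.17. The 3 CTRL siRNA arrays of 24 h were thus below all other 21 arrays of the series, and those of FMR4 siRNA lay among the rest. The change of the FMR4 siRNA effect from 6 to 24 h was 0.40 and was not called (adjusted p = 0.16), and for USP18 it was -0.36 (adjusted p = 0.249). The call of IFIT5 was lost without CTRL siRNA 24 h replicate 2 or FMR4 siRNA 24 h replicate 2 (adjusted p up to 0.099), and that of USP18 was kept without any single array.

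Of the 43 genes, 8 had an unadjusted p under 0.05 between FMR4 siRNA and CTRL siRNA at 24 h (16.4% of all genes did), and beside IFIT5 and USP18 these were not called. MAVS had 9.40, 9.39 and 9.37 with CTRL siRNA and 9.56, 9.57 and 9.57 with FMR4 siRNA, a difference of 0.18 (adjusted p = 0.132). HERC5 had a difference of 0.29 (adjusted p = 0.0891), MX2 of -0.22, IFI44L of -0.29, TRIM25 of 0.15 and IFIT2 of 0.22. In both comparisons of the change of an FMR4 effect with time, 0 of the 43 genes were called, where 1.18% of all genes were for the siRNA and 0% for the plasmid. At an unadjusted p under 0.05 there were 7 and 1 of the 43, beside 11.3% and 1.85% of all genes.

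**Figure D4:**
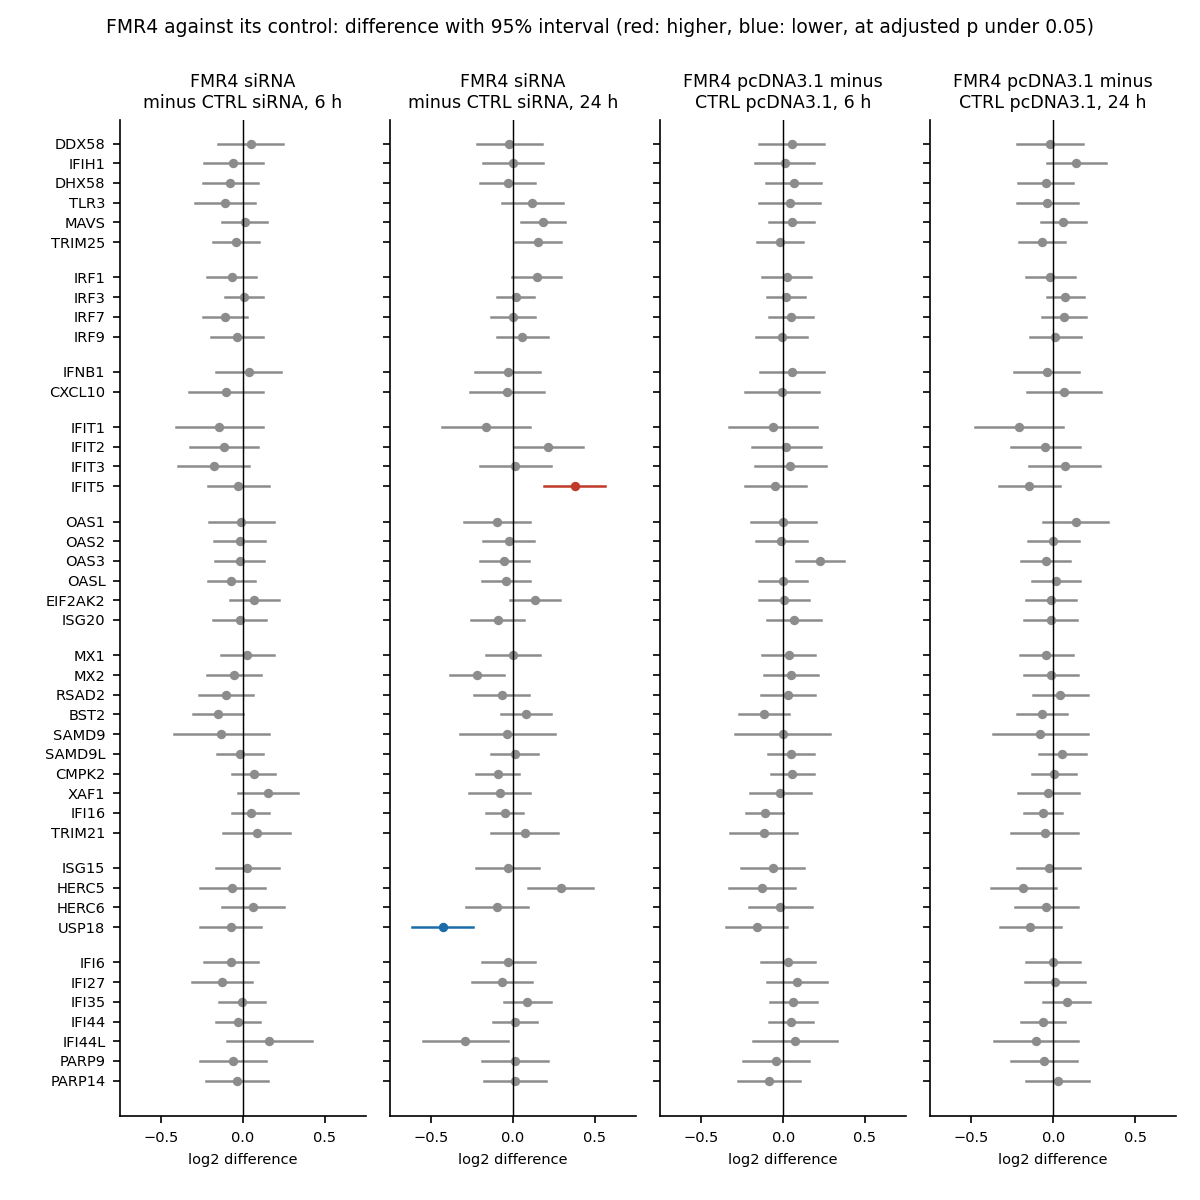
Differences of the 43 genes between FMR4 and its control on the log2 scale with 95% intervals, for siRNA at 6 and 24 h and plasmid at 6 and 24 h, in the same order of roles. Only IFIT5 (0.38, red) and USP18 (-0.43, blue) are coloured, both in the panel of FMR4 siRNA at 24 h.

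Of the usual outputs of an interferon response, IFNB1, CXCL10, MX1, ISG15 and OAS1 were called in no comparison, unlike IFIT1. IFNB1 lay between 3.98 and 4.41 with siRNA at 6 h, 4.09 and 4.27 with siRNA at 24 h, 4.09 and 4.42 with plasmid at 6 h and 4.18 and 4.43 with plasmid at 24 h, with medians of 4.30, 4.18, 4.21 and 4.32. CXCL10 had medians of 4.30, 4.12, 4.16 and 4.12 in the same order, within 3.97 to 4.50. MX1, a GTPase that traps viral particles, had medians of 5.69, 5.65, 5.60 and 5.67. The 4 groups overlapped for each of these genes, and no difference between siRNA and plasmid, or between times, passed 0.17 in size.

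ISG15 had lowest, median and highest values of 7.37, 7.48 and 7.67 with siRNA and 7.26, 7.39 and 7.51 with plasmid at 6 h. At 24 h they were 7.18, 7.45 and 7.62 with siRNA and 7.40, 7.48 and 7.59 with plasmid, all overlapping. OAS1, which makes the messenger that activates an RNA-cutting enzyme, had lowest, median and highest values of 6.65, 6.80 and 6.96 with siRNA and 6.52, 6.70 and 6.93 with plasmid at 6 h, and of 6.69, 6.82 and 7.02 and 6.65, 6.76 and 6.89 at 24 h. Its relatives OAS2, OAS3 and OASL were not called either. Neither were EIF2AK2, with medians of 10.46 and 10.54 at 6 h and 10.45 and 10.42 at 24 h for siRNA and plasmid, and DHX58, with 6.57, 6.49, 6.54 and 6.53. IFIH1 had medians of 4.92 and 4.87 at 6 h and 5.03 and 4.99 at 24 h. The factors IRF7 (8.20, 8.06, 8.06 and 8.09) and IRF9 (7.91, 7.95, 7.94 and 7.89) were not called either. In all, 28 of the 43 genes were called in none of the 11 comparisons and 15 in at least 1, where 48.5% of all genes were called in at least 1. The differences of these 28 genes between siRNA and plasmid lay between -0.06 (EIF2AK2) and 0.13 (CMPK2, a mitochondrial kinase for nucleotides) at 6 h. At 24 h they lay between -0.12 (IFNB1) and 0.11 (PARP9, of the ADP-ribosyltransferase family).

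Around these genes, the rest of the pathway was counted in 5 lists, in which no gene was called with FMR4 siRNA at 6 h or with FMR4 pcDNA3.1. The shares given for them are to be set beside those of all genes, which were 19.2% and 12.3% between the arms at 6 and 24 h and 29.9% and 18.2% with time in the siRNA and plasmid arms. With FMR4 siRNA at 24 h the shares of the 5 lists, in the order given here, were 8.7%, 11.5%, 8.7%, 9.3% and 0%, beside 5.88% of all genes. For a difference between the courses of the arms they were 13%, 0%, 13%, 6.98% and 20%, beside 11% of all genes. Of 23 interferons, receptors and JAK-STAT genes, 3 (13%) were called between siRNA and plasmid at 6 h, 5 (21.7%) at 24 h, 4 (17.4%) with time in the siRNA arms and 2 (8.7%) in the plasmid arms. PTPN2, a phosphatase that acts on JAK and STAT proteins, fell with time in the plasmid arms (-0.37, adjusted p = 1.88e-05) and was higher with siRNA at 24 h (0.24), and its courses differed by 0.37 (adjusted p = 0.00273). JAK1, a kinase on the interferon receptors, was lower at 24 h than at 6 h in both arms (-0.20 and -0.21), and TYK2, another, rose in the siRNA arms (0.23). IL10RB, a receptor chain for interferon lambda, was lower in the siRNA arms at both times (-0.29 and -0.30), but at 24 h the means were 8.71 with CTRL siRNA, 9.37 with FMR4 siRNA and 9.34 in the plasmid arms, so that only CTRL siRNA lay below plasmid. The difference between FMR4 and CTRL siRNA was 0.66 (adjusted p = 3.59e-05), and IFNLR1, its partner chain, rose with time in the siRNA arms (0.38). Of 26 other sensors of nucleic acid, 4 (15.4%) and 2 (7.69%) were called between the arms at 6 and 24 h and 7 (26.9%) and 3 (11.5%) with time in the siRNA and plasmid arms. TARBP2, a double-stranded RNA-binding partner of Dicer, was higher with FMR4 siRNA at 24 h (0.27, adjusted p = 0.00071), and it was the 1 gene of the 5 lists for which the change of that effect from 6 h was called (0.37, adjusted p = 0.00553). The helicase DDX3X fell with time in both arms (-0.25 and -0.36). At 24 h its mean was 11.57 with CTRL siRNA and 11.90 with FMR4 siRNA, a called difference of 0.33 (adjusted p = 0.00614). UNC93B1, which carries endosomal TLRs to their place, and NLRX1, a mitochondrial regulator of MAVS, rose with time in the siRNA arms (0.40 and 0.44). At 6 h NLRX1 was called lower with siRNA than with plasmid (-0.26), among 3 genes of this list called lower beside 1 called higher. RNF135, a ligase that helps RIG-I, was lower with siRNA at 6 h (-0.34). RNASEH2B, a subunit of an enzyme that cuts RNA paired with DNA, was lower with siRNA at 24 h (-0.18). Its means at 24 h were 9.57 with CTRL siRNA, 9.32 with FMR4 siRNA and 9.63 in the plasmid arms. FMR4 siRNA minus CTRL siRNA was -0.26, which was called (adjusted p = 0.00975).

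Of 23 genes that carry the signal from the sensors, 21 lay above the silent range, and 6 were called higher and 1 lower with time in the siRNA arms (30.4%) and 4 and 2 in the plasmid arms (26.1%). Between the arms 3 were called at 6 h and 3 at 24 h (13% each), and NFKBIA, the inhibitor of NF-kB, was higher with siRNA at 6 h (0.20). TBK1, the kinase that activates IRF3, rose by 0.37 with siRNA and by 0.15 with plasmid, and the difference between the courses was called (0.22, adjusted p = 0.0413). IRF2, which opposes IRF1 at the same element, rose by 0.69 (adjusted p = 1.46e-08) and by 0.27, also with a called difference between the courses (0.42, adjusted p = 0.00185). IKBKB, a kinase of NF-kB signalling, rose by 0.39 with siRNA. At 6 h TBK1 was called lower with siRNA than with plasmid (-0.14), the 1 gene of this list called lower beside 2 called higher. RELA, a subunit of NF-kB, and IKBKG, its kinase's scaffold, were lower with FMR4 siRNA at 24 h (-0.47 and -0.33). Median differences of this list with time were 0.07 with siRNA and 0.01 with plasmid.

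Of 43 further interferon-stimulated genes, 8 (18.6%) were called at 6 h and 5 (11.6%) at 24 h between the arms. With time 15 (34.9%) were called in the siRNA arms, 8 higher and 7 lower, and 1 (2.33%) in the plasmid arms (DDX60, an RNA helicase-like protein, at 0.24). NMI, a partner of IFI35, rose with siRNA by 0.63 (adjusted p = 5.98e-06) and its course differed from that with plasmid by 0.51 (adjusted p = 0.00702), while that of UBE2L6, the conjugating enzyme for ISG15, differed by -0.29 (adjusted p = 0.0218). TRIM14, an adaptor of the MAVS pathway, rose with time in the siRNA arms by 0.29 (adjusted p = 1.59e-05). At 6 h both TRIM14 (-0.23) and NMI (-0.28) were called lower with siRNA than with plasmid. They were among 5 genes of this list called lower, beside 3 called higher. The mean of NMI with siRNA at 6 h was 5.92, under the 75th percentile of the silent probe sets (6.00). LAMP3, a lysosomal membrane protein, was higher with siRNA at 24 h (0.35). Its means at 24 h were 7.15 with CTRL siRNA, 7.49 with FMR4 siRNA and 6.97 in the plasmid arms. FMR4 siRNA minus CTRL siRNA was 0.34 for LAMP3, which was called (adjusted p = 0.0256). TAP1, a peptide transporter of antigen presentation, was also higher with FMR4 siRNA at 24 h (0.35). IFI30, a lysosomal thiol reductase, was lower with siRNA at 6 h (-0.32) and 24 h (-0.17). Of 15 inflammatory and stress genes, 2 lay above the silent range, and 2 (13.3%) and 3 (20%) were called between the arms at 6 and 24 h and 4 (26.7%) and 3 (20%) with time in the siRNA and plasmid arms. ATF3, a stress-induced transcription factor, was lower with siRNA at 6 h (-0.40) and higher at 24 h (0.92, adjusted p = 2.12e-05). At 24 h its standard deviation was 0.48 over the 6 siRNA arrays and 0.09 over the 6 plasmid arrays, and the 2 sides overlapped. PTGS2, the inducible cyclooxygenase, was higher with siRNA at 24 h (1.07, adjusted p = 2.13e-05). TNF differed by 0.20 at 6 h.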

How the data were processed

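RNA of 24 HEK293T samples was measured on Affymetrix Human Gene arrays, version 1.0 ST per the labels and 2.0 per the study's methods. The deposited values are log2 expression that the authors made with GC-RMA (background correction by probe base content, normalization between arrays and a summary per probe set), over 33297 probe sets. No depth exists for arrays, and the number of arrays limits the precision. Groups were taken from the labels. The 21214 probe sets paired with a gene in the platform's annotation were fitted with limma 3.58.1 (R 4.3.3) on the deposited values, with 1 mean per condition (16 residual degrees of freedom), empirical Bayes moderation and Benjamini-Hochberg adjustment within a comparison. Comparisons of the arms averaged the control and FMR4 conditions. For counts over genes, the probe set of highest mean among those with a single symbol stood for a gene. The 44 genes, the pathway lists and the tests were chosen with earlier results of these data known. Values were given for each gene called in any comparison and for classic outputs, sensors and signalling genes, and genes named from a list were among its 3 called genes of lowest p in at least 1 comparison. Alternatives varied the arrays fitted, moderation, array weights, scaling, dim probe sets, the probe sets adjusted over, a replicate block and single arrays. Promoters were searched and figures drawn with Python 3.11.15 (matplotlib 3.10.9). The fit was also run on simulated data with independent noise for each probe set and array. Such data hold no deviations shared within an array, and no result here rests on them. FMR4 itself and STAT2 were not analysed here.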

Additional observations from a re-analysis of the deposited data

Results flagged for a closer look

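The course of DDX58 between 6 and 24 h differed between the siRNA and plasmid arms by 0.42 on the log2 scale in limma's test of that difference (adjusted p = 0.0093), rising in the siRNA arms and not in the plasmid arms. The nucleic acid and the reagent differ together between the arms, and their part in the result was not tested.

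The probe set shared by USP18 and USP41P differed in its response to FMR4 siRNA between 24 and 6 h by -0.41 (SE 0.096, adjusted p = 0.0357), with -0.44 at 24 h and -0.03 at 6 h. For the probe set of USP18 alone the same difference was -0.36 and was not called (adjusted p = 0.249).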

How the results depend on the processing

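Across the settings other than leaving out an array, the 27 calls of these genes gave 232 values, of which 203 kept and 29 lost the call, and none changed direction. The lost calls were those of DDX58, MAVS, HERC6, IRF1 and SAMD9 between the arms at 6 h, HERC6, SAMD9 and TLR3 between the arms at 24 h, IFI44L, TLR3 and IRF1 with time in the siRNA arms, and IFI44L and IRF3 with time in the plasmid arms. HERC6 at 24 h lost it most often. With array weights the number of called genes was 4 for FMR4 siRNA at 24 h, 8 between the arms at 6 h, 9 for time in the plasmid arms, 7 for the difference between the courses of the arms and 1 for the change of the FMR4 siRNA effect with time. With dim probe sets removed, which leaves fewer genes tested, it was 1 and 0 between the arms at 6 and 24 h, 4 and 3 for time in the siRNA and plasmid arms. With only the arrays compared it was 2 between the arms at 6 h and 10 for time in the plasmid arms. With quantile normalization or median centring it was 3 for the difference between the courses. With all probe sets adjusted over it was 1 between the arms at 24 h, and with the control conditions alone 0 at 6 h and 1 at 24 h. With the 75th percentile as the mark, 26 genes lay above the silent range. For the changes not explained by fewer genes or arrays, the cause was not tested. The share of all genes called was not counted in these settings, nor with an array left out or with a replicate block. Whether the counts lie above or below that share is thus not known.

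Leaving out each array in turn gave 1 to 3 called genes for FMR4 siRNA at 24 h, 2 to 6 and 1 to 5 between the arms at 6 and 24 h, 8 to 12 and 3 to 6 for time in the siRNA and plasmid arms, 1 to 3 for the difference between the courses, and 0 to 2 for the change of the FMR4 siRNA effect with time. Of 648 such values 76 lost the call.

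Arrays with the same replicate number did not deviate together throughout (correlations from -0.379 to 0.474, over 0.1 in 9 of 36 pairs). Between CTRL and FMR4 siRNA, replicates 1 to 3 had 0.165, -0.0633 and 0.474 at 6 h and 0.0836, -0.379 and -0.157 at 24 h. Between the plasmid conditions they had 0.0756, 0.155 and 0.116 at 6 h and -0.0387, -0.0942 and 0.144 at 24 h. The numbers were not taken as pairs. With the replicate number as a block, 2 genes were called for FMR4 siRNA at 24 h, 6 and 2 between the arms at 6 and 24 h, 11 and 5 for time in the siRNA and plasmid arms and 1 for the difference between the courses, and the lost calls were those of HERC6 between the arms (adjusted p = 0.0608 at 6 h and 0.0779 at 24 h).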
